A study of Mus musculus with 24 samples.

Results

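The comparison described here set colorectal tumors against colorectal tissue annotated as normal in mice whose genotype was labelled homozygous c-MAF knockout. Its members were the 3 tumor and 2 normal libraries whose titles carry that zygosity and tissue, 5 of the 24 RNA-seq libraries of the series. All 5 came from animals given AOM/DSS, which is azoxymethane, a carcinogen, with dextran sulfate sodium, a polymer that injures the colon lining, so the normal tissue came from treated animals too. The groups used for comparison were given the same treatment: wild-type animals labelled young (4 tumors and 2 normals) and animals labelled heterozygous for the knockout with the same leading title number, 8, as the homozygous ones (3 tumors and 2 normals). These groups are called KO-8-homo, WT-young and KO-8-hetero. A further heterozygous group, KO-1-hetero, has the leading number 1 and served as an alternative. Wild-type animals labelled old (1 tumor and 2 normals) entered the shared model and gave values for Maf. The labels do not explain the number. On age they give only the words young and old for the wild-type animals, and no word for the knockout animals. They do not give sex or strain, the way c-MAF was deleted, the segment of colon sampled, or whether a tumor and a normal piece came from 1 animal. Nothing says that the libraries of a group came from separate animals, so the p-values refer to libraries and need not hold for animals.

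Colon tumors induced by this treatment are known for activated Wnt signaling. Wnt ligands stabilise beta-catenin, which with TCF and LEF factors turns on genes that keep crypt cells undifferentiated and a set of feedback inhibitors that damp the pathway. The healthy crypt ends in absorptive colonocytes, goblet cells and hormone cells, and the lining rests on connective tissue, muscle and nerves, all of which enter the RNA of a tissue piece. c-MAF, encoded by Maf, is a basic leucine zipper transcription factor studied mostly in T cells, macrophages and the lens.

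Expression was read as FPKM, a fragment count divided by transcript length and by the library's mapped fragments, and tested as log2(FPKM + 1). Of 24346 gene symbols, 13407 had at least 1 FPKM in at least 2 of the 5 libraries. All log2 fold changes below are tumor minus normal on the log2(FPKM + 1) scale, which understates changes of low genes. SE is the standard error. It rests on the spread within the groups of all 24 libraries, not within these 5 alone. A gene is said to have risen or fallen where the adjusted p of limma's moderated test was below 0.05. Relative depth was 1.00 to 1.07 in the tumors and 0.773 to 0.800 in the normals, relative to the median of these 5 libraries as read from the lowest FPKM values. Each of the 5 libraries had 12674 to 12886 genes at 1 FPKM or more. Krt8, a keratin of simple epithelium, stood at 1769, 2069.8 and 2149.6 FPKM in the tumors and 3185 and 3279 FPKM in the normals, high in both tissues.

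Maf itself, on chromosome 8 (chr8:115703253-115706894 in mm10), was measured first because it is the gene the genotype label names. It stood at 3.0, 4.73 and 4.05 FPKM in the tumors and 6.27 and 3.99 FPKM in the normals, and the ranges overlapped (log2 fold change -0.30, SE 0.27, adjusted p = 0.422). An exact permutation test over the 5 libraries gave a two-sided p of 0.6, where 0.2 is the smallest that 10 splits can give. The WT-young normals gave 2.76 and 2.82 FPKM and the WT-young tumors 1.63 to 2.26 FPKM, so Maf was not lower in the libraries labelled homozygous knockout than in these. Of the wild-type libraries labelled old, the single tumor gave 7.26 FPKM, above every KO-8-homo tumor, and the normals gave 2.06 and 1.37 FPKM. Gene-level FPKM does not separate exons, so these values check neither the label nor the loss of protein. The group names therefore mean the label throughout. Of the other MAF genes kept, the small MAF gene Mafg rose from 7.58 and 6.0 FPKM to 25.0, 25.8 and 18.9 FPKM (log2 fold change 1.63, SE 0.34, adjusted p = 0.00376), while Maff, another small MAF gene, did not pass the test (log2 fold change 0.74, SE 0.35, adjusted p = 0.134). Of 8 genes reported as c-MAF targets 5 passed the expression filter, and 3 of these rose, beside 12.4% of all genes. They were the cyclin gene Ccnd2, the kinase gene Nuak1 and the chemokine receptor gene Ccr1, with log2 fold changes of 1.58, 1.14 and 0.92. The other 2 did not pass, and the lowest value of the 5 was -1.02. Against their own normals, 2 of the 5 rose in WT-young, and 2 rose and 1 fell in KO-8-hetero.

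Tumor and normal tissue differed widely. With all 24 libraries sharing 1 estimate of the spread, 1656 genes rose and 1564 fell, which is 24% of the genes tested (12.4% higher and 11.7% lower). The list counts below are to be read beside these shares, also where they are not repeated. Of 690 distinct genes on the 42 lists 21 are on more than 1 list, so some genes are counted more than once. With a log2 fold change of at least 1 added to the call, 775 genes rose (5.78%) and 849 fell (6.33%). The median log2 fold change over all 13407 genes was 0.03. In 69.2% of all genes the 3 tumors did not overlap the 2 normals, so a lack of overlap alone is common here. The counts depend on each normal library: without normal 1 they were 423 higher and 342 lower, and without normal 2 they were 540 and 364. Without tumor 1 they were 886 and 770, and in a fit of the 5 libraries alone 3120 and 3065.

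**Figure D1:**
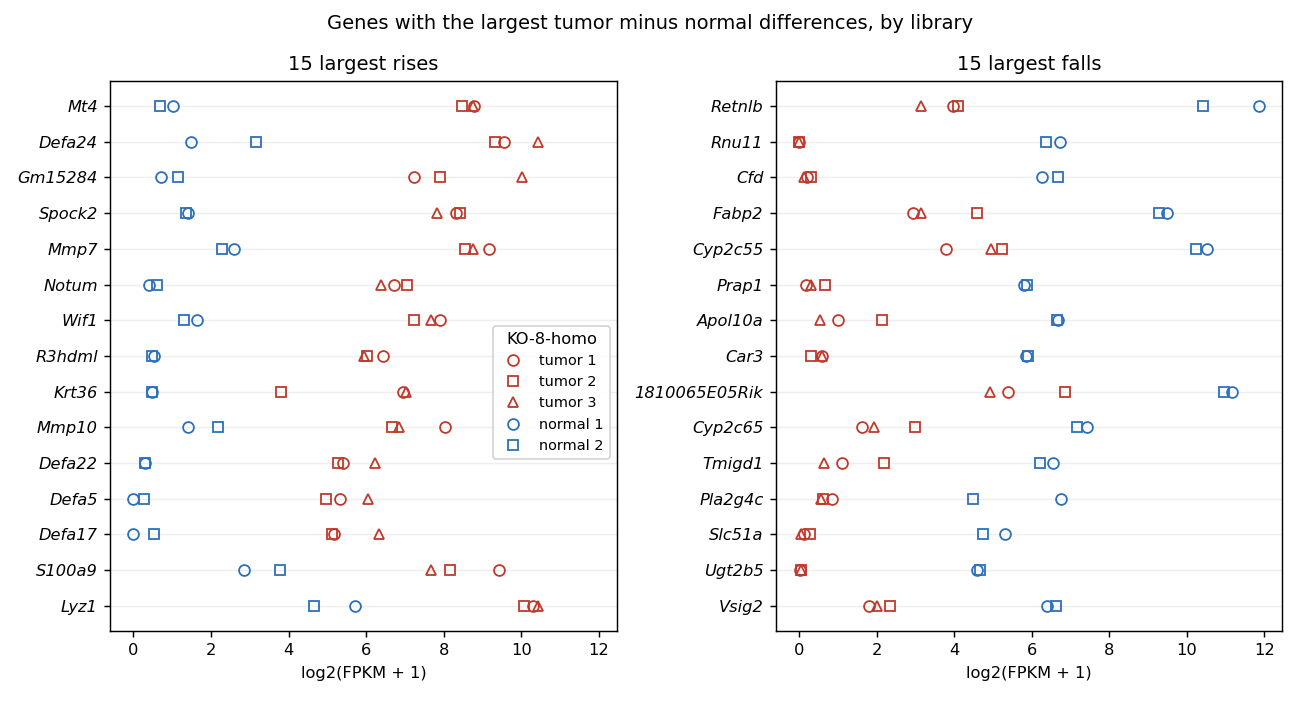
Values of log2(FPKM + 1) in the 3 KO-8-homo tumors (red) and 2 KO-8-homo normals (blue) for the 15 largest rises and 15 largest falls. All passed the test, with ranges that do not overlap and a mean of at least 5 FPKM in the higher group. Tumor and normal symbols are far apart in every gene shown, as the choice requires, while tumor 2 lies well below the other tumors in Krt36.

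The largest rises among genes with a mean of at least 5 FPKM in the higher group joined a metallothionein, Paneth cell defensins, matrix proteases and Wnt inhibitors. Mt4, a metallothionein best known from stratified epithelium, stood at 442, 352 and 433 FPKM in the tumors and 1.03 and 0.614 FPKM in the normals (log2 fold change 7.82, SE 1.07, adjusted p = 2.34e-04). All 3 tumors were alike and both normals were near 1 FPKM. Spock2, a secreted proteoglycan gene, stood at 317, 340.5 and 225 FPKM against 1.66 and 1.54 FPKM (log2 fold change 6.81, SE 0.85, adjusted p = 1.36e-04). R3hdml stood at 85.6, 63.7 and 60.1 FPKM against 0.435 and 0.389 FPKM (log2 fold change 5.63, SE 0.43, adjusted p = 2.93e-06). In each of these genes, chosen among those without overlap, the spread among the tumors was small beside the distance to the normals. The hair-type keratin gene Krt36 also rose (log2 fold change 5.45, SE 0.89, adjusted p = 8.53e-04), from 0.384 and 0.39 FPKM to 123, 12.9 and 129.7 FPKM, with tumor 2 far below tumors 1 and 3.

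The metallothioneins, small proteins that bind zinc and copper, lie side by side on chromosome 8 and did not rise alike. Mt3 rose from 21.1 and 19.3 FPKM to 223, 249 and 226 FPKM (log2 fold change 3.46, SE 1.02, adjusted p = 0.0226), and Mt2 from 93.3 and 106 FPKM to 337, 282 and 222 FPKM (log2 fold change 1.47, SE 0.50, adjusted p = 0.0422). Mt1 stood at 177, 179 and 136 FPKM in the tumors and 185 and 194 FPKM in the normals and did not pass (log2 fold change -0.22, SE 0.33, adjusted p = 0.652). In mm10 the genes run in the order Mt4 (chr8:94137204-94139031), Mt3 (chr8:94152607-94154148), Mt2 (chr8:94172618-94173567) and Mt1 (chr8:94178883-94180327), and the size of the rise fell along that order. In WT-young tumors against their normals the log2 fold change of Mt4 was 7.90, and the difference between the groups was -0.08 (adjusted p = 0.998).

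Wnt feedback and target genes rose almost as a block. Of 22 listed and kept genes 20 rose and 0 fell, with a median log2 fold change of 2.58, against 12.4% of all genes that rose and a median of 0.03. All 22 were higher in every tumor than in either normal, as were 36.3% of all genes. With each of the 5 libraries left out in turn, 17 to 20 rose. Among the secreted inhibitors, Notum, an enzyme that strips the lipid from Wnt proteins, stood at 104, 133 and 82.3 FPKM in the tumors and 0.326 and 0.51 FPKM in the normals (log2 fold change 6.22, SE 0.73, adjusted p = 8.55e-05). Wif1, which binds Wnt proteins outside the cell, stood at 238, 150.2 and 202 FPKM against 2.09 and 1.45 FPKM (log2 fold change 6.14, SE 0.54, adjusted p = 6.21e-06). Both were near absent from normal tissue. Dkk2, a ligand of the Wnt co-receptor, rose by 3.39 and Apcdd1, a membrane inhibitor, by 4.88.

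Inhibitors inside the cell and at its surface followed. Axin2, a scaffold of the complex that degrades beta-catenin, stood at 54.4, 55.2 and 47.3 FPKM in the tumors and 6.29 and 6.22 FPKM in the normals (log2 fold change 2.87, SE 0.63, adjusted p = 0.00481). Nkd1, which acts on Dishevelled, rose by 3.96 (SE 0.70), and the ubiquitin ligase genes Rnf43 and Znrf3, whose products remove Wnt receptors, by 2.71 and 1.91. Of the transcription factors, Lef1 rose by 2.61, Tcf7 by 2.46, Sp5 by 3.23, Ascl2 by 2.03 and Prox1 by 4.49. The growth genes Myc and Ccnd1 rose by 1.55 and 1.53, less than most of the feedback genes. Cd44 at 53.3, 31.2 and 32.3 FPKM against 28.1 and 24.8 FPKM and Ephb2 at 16.2, 22.5 and 15.8 FPKM against 15.7 and 15.6 FPKM were the listed genes that did not pass.

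To show what lies in front of these genes, the 250 bases upstream of each annotated start were searched for CTTTGAT and CTTTGAA, letters bound by TCF and LEF factors, on both strands. RefSeq windows (GRCm38.p6, the assembly of mm10) were held for 15 of the 22 genes, in 22 windows, some of which overlap. A match was present in 2 windows (9.09%), against 7.48% of all 32851 windows. They are printed 5′ to 3′ on the gene's strand with the match in capitals, and the absence of a match elsewhere says only that these letters are not in that window.
Sp5, plus strand, chr2:70474673-70474922: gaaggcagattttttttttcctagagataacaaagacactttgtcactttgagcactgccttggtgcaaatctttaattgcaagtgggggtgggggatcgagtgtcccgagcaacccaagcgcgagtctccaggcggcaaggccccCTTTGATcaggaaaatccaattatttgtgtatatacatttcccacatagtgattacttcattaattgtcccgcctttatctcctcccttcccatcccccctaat
Tnfrsf19, second annotated start, minus strand, chr14:61037988-61038237: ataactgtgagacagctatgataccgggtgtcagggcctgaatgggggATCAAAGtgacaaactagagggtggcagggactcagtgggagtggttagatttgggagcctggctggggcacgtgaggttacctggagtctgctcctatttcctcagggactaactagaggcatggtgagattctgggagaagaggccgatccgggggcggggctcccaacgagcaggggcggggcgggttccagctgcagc
The genes behind these windows both rose, as did 20 of the 22 listed genes, so a rise does not set genes with a match apart. Sp5, a zinc finger repressor, went from 0.462 and 0.259 FPKM to 15.9, 12.5 and 8.12 FPKM (log2 fold change 3.23, SE 0.60, adjusted p = 0.00199). Tnfrsf19, a TNF receptor family member of crypt cells, went from 1.53 and 1.54 FPKM to 17.5, 12.1 and 12.4 FPKM (log2 fold change 2.55, SE 0.48, adjusted p = 0.00221).

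Crypt stem cell genes rose in 9 of 13 cases, with 1 fall and a median log2 fold change of 1.27. Lgr5, the R-spondin receptor that marks crypt base stem cells, stood at 18.3, 23.2 and 17.3 FPKM in the tumors and 0.563 and 0.631 FPKM in the normals (log2 fold change 3.68, SE 0.30, adjusted p = 4.66e-06). Smoc2, a matricellular protein gene of the same cells, stood at 64.0, 80.8 and 63.9 FPKM against 6.34 and 5.92 FPKM (log2 fold change 3.30, SE 0.32, adjusted p = 1.59e-05). In both genes the 3 tumors lay close together. The gene that fell was Rgmb, a BMP co-receptor, by 0.63 on the log2 scale, and Lgr5, Axin2, Ascl2, Znrf3 and Tnfrsf19 are on the Wnt list too. Olfm4 did not reach the expression filter. Of 11 genes of fetal-like repair epithelium, which appears after injury, 5 rose, among them Clu from 54.9 and 27.6 FPKM to 258, 409 and 259.8 FPKM (log2 fold change 2.92, SE 0.50, adjusted p = 0.00116) and Spp1 from 0.758 and 2.0 FPKM to 130.2, 44.9 and 26.4 FPKM (log2 fold change 4.58, SE 0.66, adjusted p = 3.66e-04). For Spp1 tumor 1 held several times the level of tumors 2 and 3.

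Genes of Paneth cells, which in health sit in the small intestine and secrete antimicrobial proteins, split in direction. Of 15 kept genes 8 rose and 1 fell, with a median log2 fold change of 4.01. Lyz1, Paneth cell lysozyme, stood at 1265, 1068 and 1390.4 FPKM in the tumors and 51.0 and 24.1 FPKM in the normals (log2 fold change 5.10, SE 0.67, adjusted p = 1.75e-04). Mmp7, the protease that activates mouse defensins, stood at 573, 372 and 434 FPKM against 5.02 and 3.82 FPKM (log2 fold change 6.39, SE 0.63, adjusted p = 1.82e-05), and Pla2g2a, a secreted phospholipase gene, at 369, 337 and 311 FPKM against 15.3 and 16.6 FPKM (log2 fold change 4.33, SE 0.42, adjusted p = 1.55e-05). No tumor came near a normal library in these genes. The alpha-defensin gene Defa24 stood at 757, 638 and 1388 FPKM against 1.79 and 7.97 FPKM (log2 fold change 7.45, SE 1.05, adjusted p = 2.98e-04), with tumor 3 the highest. Defa22, Defa5 and Defa17 rose by 5.34, 5.30 and 5.26, but defensin genes are near-identical copies and reads can be split among them, so single values are uncertain. Mptx1, a pentraxin gene, fell from 2519 and 596 FPKM to 64.7, 42.0 and 177 FPKM (log2 fold change -3.95, SE 1.35, adjusted p = 0.0423). Ang4, Reg3b and Reg3g, other antimicrobial genes of the list, did not pass, with log2 fold changes of -1.90, -2.58 and -0.15. Their errors were wide (SE 1.78, 2.13 and 1.28) in the model of all 24 libraries. Within KO-8-homo Reg3g varied little, at 34.6, 43.5 and 51.5 FPKM in the tumors and 41.6 and 53.8 FPKM in the normals.

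**Figure D2:**
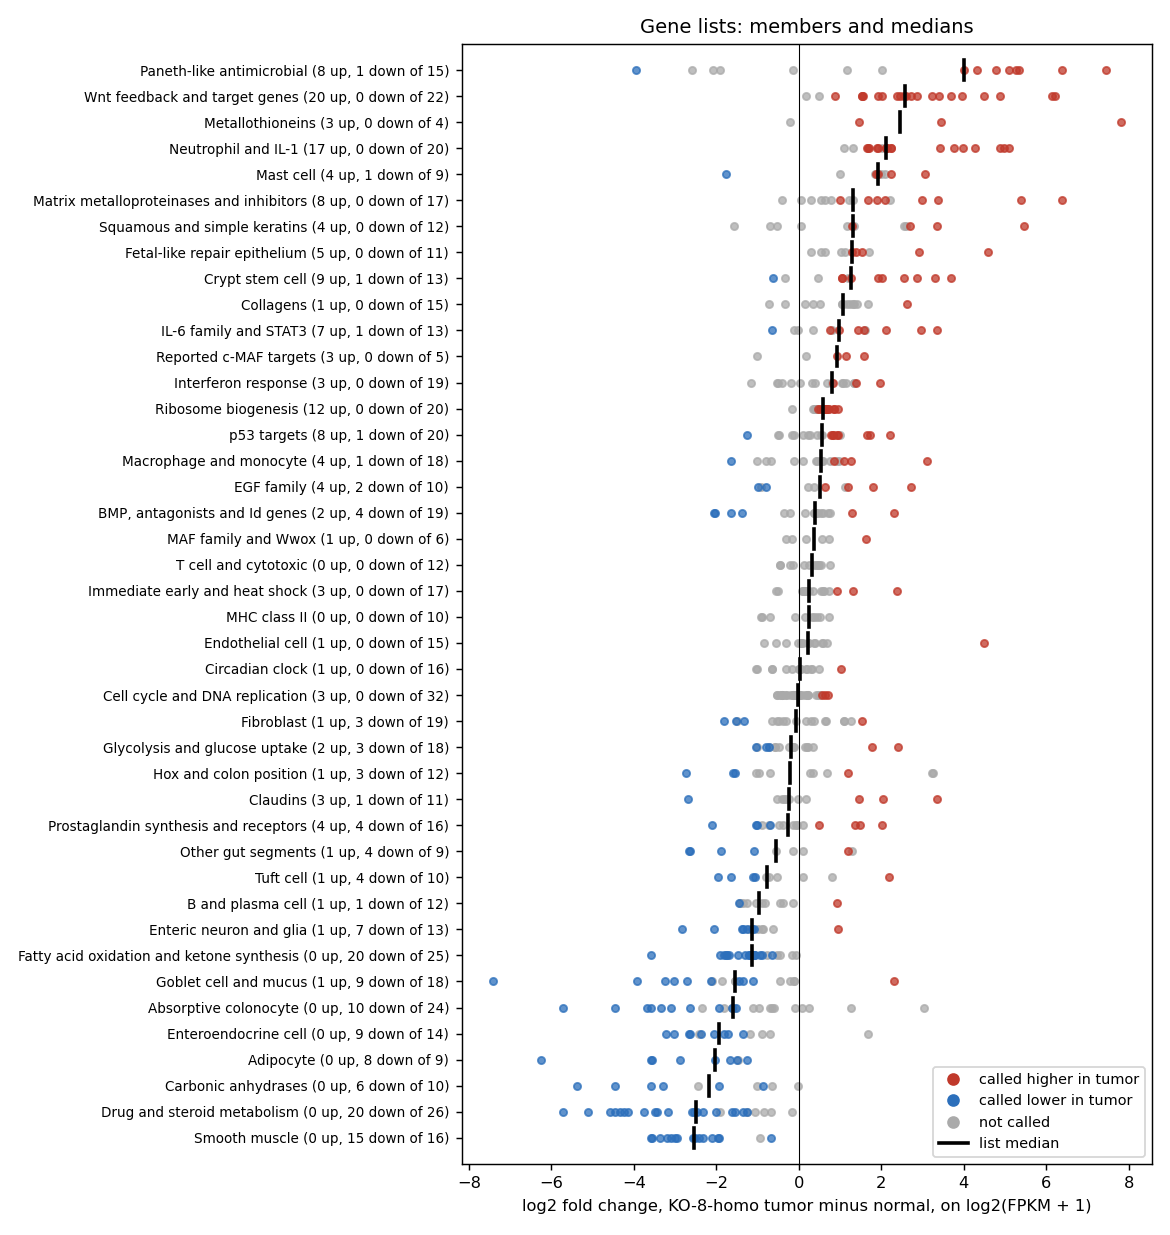
Log2 fold changes, KO-8-homo tumor minus normal, of the members of 42 gene lists, ordered by the list median (black bar), with called genes in red (higher) and blue (lower) and others in grey. Paneth-like, Wnt, metallothionein and neutrophil lists lie highest with medians of 4.01, 2.58, 2.46 and 2.13, drug metabolism and smooth muscle lowest at -2.50 and -2.54, and the 32 cell cycle genes lie close to 0.

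Among absorptive, goblet, enteroendocrine and tuft cell genes more fell than rose, though many did not pass. In bulk tissue, fewer cells of a type and less RNA per cell cannot be told apart. Of 24 absorptive colonocyte genes 10 fell and 0 rose (median -1.59). Car1, a carbonic anhydrase of surface colonocytes, stood at 181, 531 and 206 FPKM in the tumors and 5980.2 and 5919 FPKM in the normals (log2 fold change -4.46, SE 1.00, adjusted p = 0.0058). Guca2a, the guanylin gene, stood at 163, 305 and 244 FPKM against 3048 and 2846 FPKM (log2 fold change -3.67, SE 0.73, adjusted p = 0.0029). Slc26a3 and Aqp8, which carry chloride and water, fell by 3.09 and 3.34 on the log2 scale. Without normal 1 only 2 of the 24 passed, without normal 2, 3, and without tumor 1, 4, at medians of -1.49, -1.61 and -1.47, and without tumor 2 or tumor 3, 6. Of the 24 genes 4 had a positive value, up to 3.03, and none of these passed. In 2 genes every tumor lay above both normals, beside 36.3% of all genes. Lypd8, a surface protein gene, stood at 4665, 8255 and 8212 FPKM against 6866 and 6119.6 FPKM, with tumors on either side of the normals. It did not pass (log2 fold change 0.07, SE 0.51, adjusted p = 0.936). Fabp2, a fatty acid carrier gene and one of the largest falls of the whole table, went from 721 and 626 FPKM to 6.62, 22.9 and 7.86 FPKM (log2 fold change -5.84, SE 1.35, adjusted p = 0.00669).

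Goblet cell genes fell in 9 of 18 cases with 1 rise (median -1.55). Muc2, the main gel-forming mucin, stood at 347, 654 and 435 FPKM in the tumors and 4114 and 3405 FPKM in the normals (log2 fold change -3.02, SE 0.86, adjusted p = 0.0186). Retnlb, a secreted goblet cell protein, had the largest fall of all genes named by the rule, from 3741 and 1369.8 FPKM to 14.6, 16.1 and 7.82 FPKM, with a wide error (log2 fold change -7.41, SE 2.38, adjusted p = 0.0327). The lineage factor Atoh1 fell by 1.45. Muc1, a membrane mucin, went the other way, from 0.956 and 2.18 FPKM to 12.3, 10.1 and 11.7 FPKM (log2 fold change 2.31, SE 0.44, adjusted p = 0.00222). Tff3 and Spink4, also secreted by goblet cells, stood at 1309, 1104 and 2004 FPKM and 2788, 4156 and 4593 FPKM in the tumors, within or near the normal values of 1636 and 1472 FPKM and 4510.3 and 4165 FPKM, and did not pass.

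Of 14 genes of hormone-secreting enteroendocrine cells 9 fell and 0 rose (median -1.94). Chga, chromogranin A, stood at 7.11, 8.39 and 15.3 FPKM against 75.8 and 57.6 FPKM in the normals (log2 fold change -2.64, SE 0.55, adjusted p = 0.00374), and Sst, somatostatin, at 0.887, 1.03 and 1.41 FPKM against 22.6 and 15.2 FPKM (log2 fold change -3.22, SE 0.64, adjusted p = 0.0028). In 12 of the 14 genes tumor 3 was the highest tumor. Of 10 tuft cell genes 4 fell and 5 did not pass. Among those that fell was the taste channel gene Trpm5 (log2 fold change -1.63, SE 0.40, adjusted p = 0.00886), and Avil rose by 2.19. Of 11 claudins, the sealing proteins of tight junctions, Cldn4 rose from 26.8 and 15.7 FPKM to 290.5, 197 and 182 FPKM (log2 fold change 3.34, SE 0.43, adjusted p = 1.61e-04), Cldn14 and Cldn6 rose from low levels, and Cldn15, which forms sodium pores, fell by 2.68.

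Most genes of fatty acid oxidation, ketone synthesis and drug and steroid metabolism fell, and the cell types they came from were not tested. Of 25 genes of fatty acid oxidation and ketone synthesis 20 fell and 0 rose (median -1.13, against 11.7% of all genes that fell). Acaa2, a mitochondrial thiolase gene, stood at 35.3, 44.3 and 40.6 FPKM in the tumors and 152 and 155 FPKM in the normals (log2 fold change -1.91, SE 0.30, adjusted p = 5.80e-04). The tumors stood below both normals in 22 of the 25 genes, beside 32.9% of all genes, with falls of 0.95 for the carnitine transferase gene Cpt1a and 1.21 for the dehydrogenase gene Acadm. Of 26 genes of drug and steroid metabolism 20 fell and 0 rose (median -2.50). Cyp2c55, a cytochrome P450 gene, went from 1457 and 1203 FPKM to 12.8, 36.6 and 29.7 FPKM (log2 fold change -5.72, SE 1.16, adjusted p = 0.00335), Ugt2b5, which conjugates glucuronic acid, from 22.9 and 24.4 FPKM to 0.0247, 0.0258 and 0.0361 FPKM (log2 fold change -4.58, SE 1.11, adjusted p = 0.00858), and Aldh1a1, a retinal-oxidising enzyme, from 153 and 177 FPKM to 5.85, 9.75 and 6.56 FPKM (log2 fold change -4.33, SE 0.80, adjusted p = 0.00185). Without normal 1 the falls numbered 12 of the 25 oxidation genes and 10 of the 26 drug metabolism genes, and without normal 2, 12 and 11. Several of these families hold close paralogs, so single values are less certain than the common direction. Of 10 carbonic anhydrases 6 fell and 0 rose.

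Of 18 glycolysis genes 2 rose and 3 fell (median -0.18), shares close to the 12.4% and 11.7% over all genes. Pfkfb3, whose product raises flux through glycolysis, rose from 2.84 and 2.25 FPKM to 15.2, 8.28 and 11 FPKM (log2 fold change 1.79, SE 0.21, adjusted p = 8.55e-05), and Slc16a3, a lactate exporter gene, from 3.73 and 2.54 FPKM to 28.8, 16.7 and 18.5 FPKM (log2 fold change 2.41, SE 0.42, adjusted p = 0.00127). Hk1, Pfkl and Gpi1 fell by 1.05, 0.79 and 0.72. Ldha, lactate dehydrogenase, did not pass (log2 fold change -0.73, SE 0.27, adjusted p = 0.0585).

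The cell cycle list did not rise with the Wnt list. Of 32 genes of the cell cycle and DNA replication 3 rose and 0 fell, with a median log2 fold change of -0.01, beside 12.4% of all genes that rose. In a fit of the 5 libraries alone 6 rose and 4 fell, and with any 1 library left out 0 or 1 passed in limma, where 7 had an unadjusted p below 0.05 with all libraries. Mki67, the Ki-67 gene of dividing cells, stood at 18.8, 18.1 and 20.3 FPKM in the tumors and 26.5 and 26.1 FPKM in the normals (log2 fold change -0.44, SE 0.19, adjusted p = 0.103). Top2a, a topoisomerase gene of late S phase and mitosis, stood at 38, 27.1 and 36.1 FPKM against 33.6 and 36.4 FPKM (log2 fold change -0.06, SE 0.21, adjusted p = 0.846). For Mki67 every tumor lay below both normals, and for Top2a the ranges overlapped. The genes that rose encode subunits of the replication helicase: Mcm2 from 12.3 and 10.3 FPKM to 21.2, 17.4 and 18.9 FPKM (log2 fold change 0.71, SE 0.21, adjusted p = 0.0207), Mcm4 (log2 fold change 0.64, SE 0.22, adjusted p = 0.0411) and Gins1 (log2 fold change 0.57, SE 0.20, adjusted p = 0.0494). Ribosome biogenesis, in contrast, rose in 12 of 20 genes with 0 falls (median 0.60), for example nucleolin, Ncl, from 39.1 and 32.4 FPKM to 69.1, 61.2 and 65.6 FPKM (log2 fold change 0.86, SE 0.19, adjusted p = 0.00565). Of 20 p53 targets 8 rose and 1 fell (median 0.56), led by Phlda3 (log2 fold change 2.21, SE 0.35, adjusted p = 7.36e-04), while Cdkn1a, the p21 gene, did not pass (log2 fold change 0.27, SE 0.23, adjusted p = 0.417).

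**Figure D3:**
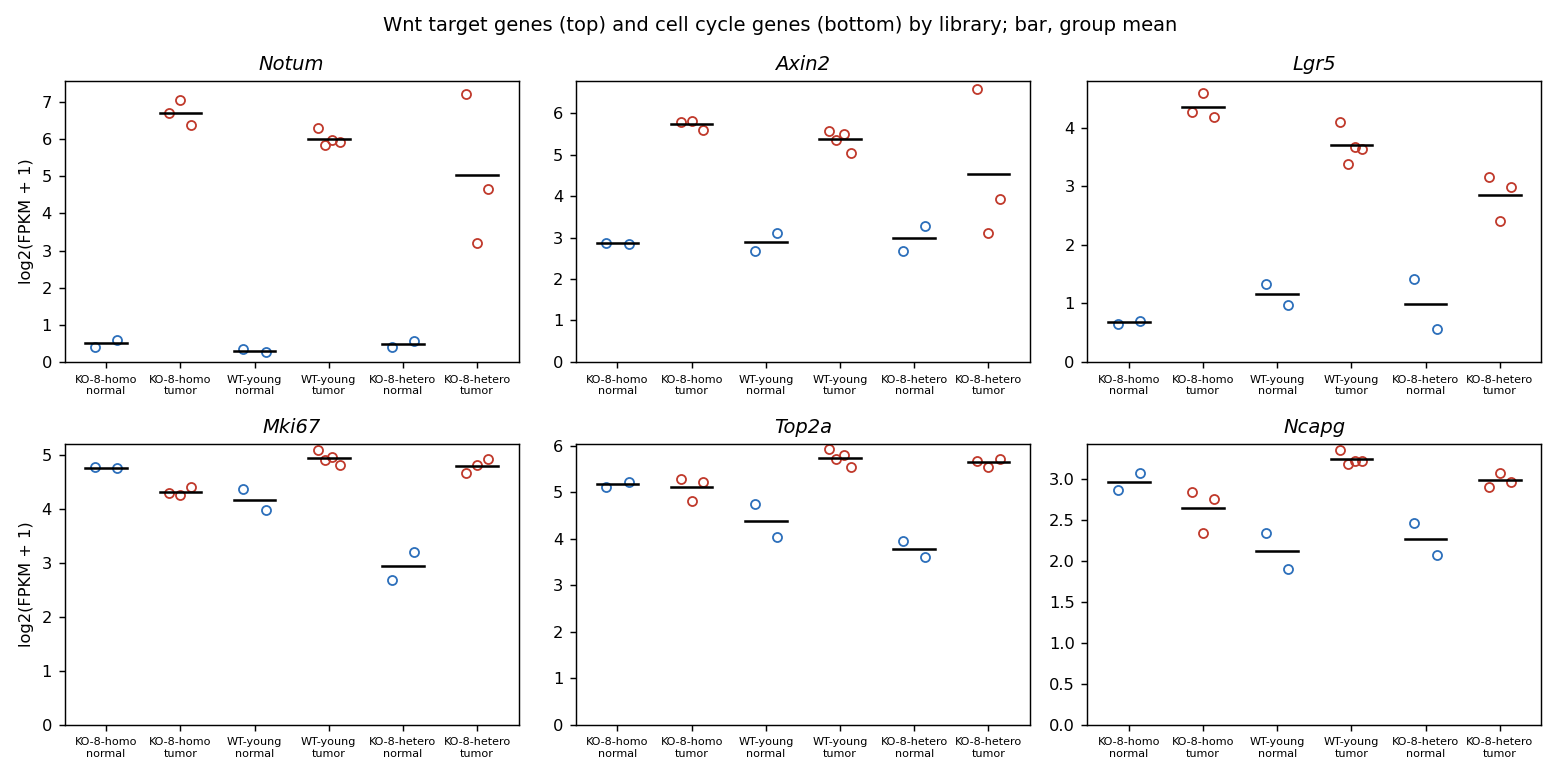
Levels as log2(FPKM + 1) of 3 Wnt target genes (top) and 3 cell cycle genes (bottom) in each normal (blue) and tumor (red) library of the KO-8-homo, WT-young and KO-8-hetero groups, with group means as bars. Notum, Axin2 and Lgr5 are higher in every KO-8-homo tumor than in its normals, whereas Mki67 is lower in the KO-8-homo tumors (18.1 to 20.3 FPKM) than in their normals (26.1 and 26.5 FPKM) and higher in the WT-young and KO-8-hetero tumors than in their normals.

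In WT-young tumors 27 of the 32 cell cycle genes rose against their normals. The contrast with KO-8-homo had 1 direction over the list without a single gene passing. The tumor minus normal difference was compared between KO-8-homo and WT-young as a difference of differences. For this 0 of 13407 genes passed with limma (0.0%), and 841 had an unadjusted p below 0.05. The smallest p-values belonged to Ncapg, a condensin gene, and Kifc1, a mitotic motor gene, with differences of -1.45 and -1.17 and an adjusted p of 0.113 for each. Ncapg stood at 6.19, 4.08 and 5.78 FPKM in the KO-8-homo tumors and 6.32 and 7.41 FPKM in their normals, and at 8.13 to 9.27 FPKM in the WT-young tumors and 4.06 and 2.73 FPKM in theirs. In all 32 cell cycle genes the difference was negative, with a median of -0.81, where 48.7% of all genes were negative and their median was 0.01. Of the 32 genes, 24 had an unadjusted p below 0.05. Genes of a list were read in the same libraries, so their signs are not independent, here and in the other lists.

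The single-gene result against wild type depends on 1 normal library. Without WT-young normal 1, 24 genes passed with a positive and 108 with a negative difference, 14 of them cell cycle genes. Without WT-young normal 2, 0 genes passed, 29 of the 32 cell cycle genes were negative and the median was -0.59. The WT-young normals differ from each other: normal 1 held 7446 FPKM of summed smooth muscle genes and normal 2 held 2271 FPKM, and the part of this was not tested. Summed over the 32 genes, the KO-8-homo tumors gave 543 to 633 FPKM and their normals 596 and 639 FPKM. The WT-young tumors gave 686 to 866 FPKM and their normals 549 and 333 FPKM. In KO-8-homo the sums overlapped, and in WT-young every tumor lay above both normals.

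Against KO-8-hetero, 417 genes passed (3.11%), 156 with a larger and 261 with a smaller tumor minus normal difference in KO-8-homo. Both comparisons use the same KO-8-homo libraries. Of the 32 cell cycle genes 12 passed, all with a smaller difference, and 2 to 16 did so when 1 library of these groups was left out. The KO-8-hetero normals held little Mki67 (5.44 and 8.17 FPKM) beside 26.5 and 26.1 FPKM in the KO-8-homo normals, while the KO-8-hetero tumors held 24.4 to 29.5 FPKM. The difference for Mki67 was -2.31 (SE 0.28, adjusted p = 7.84e-04). The number of genes that passed depended on single libraries. It was 5 positive and 39 negative without KO-8-hetero normal 2, 1746 and 1758 without KO-8-hetero normal 1, 445 and 508 without KO-8-hetero tumor 1, and 104 and 153 without KO-8-hetero tumor 3. It was 1 and 12 without KO-8-homo normal 1, 16 and 52 without normal 2, 52 and 113 without tumor 1, 46 and 100 without tumor 2, and 30 and 91 without tumor 3. With the KO-1-hetero group in its place, 0 genes passed in limma and 1177 had an unadjusted p below 0.05. There 13 of the 32 cell cycle genes were negative, beside 48.1% of all genes. The KO-1-hetero tumors gave 16.4 to 28.8 FPKM of Mki67 and their normals 22.6 and 25.9 FPKM, and for Top2a 33.2 to 44.7 FPKM and 39.7 and 40.8 FPKM, so in both genes the tumors lay on either side of their normals. With libraries scaled to a common median, 101 were positive and 359 negative, 22% and 78% of the called genes in place of 37.4% and 62.6%. The Wnt list went the other way: against WT-young the difference was positive in 19 of its 22 genes (median 0.49), and 0 passed. Against KO-8-hetero it was positive in 21 (median 1.12), and 1 passed. Against KO-1-hetero it was positive in 20 (median 0.86), and 0 passed.

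Genes of neutrophils and of the IL-1 response were among the most uniform rises. Of 20 genes 17 rose and 0 fell (median 2.13). S100a9, a subunit of the neutrophil protein calprotectin, stood at 685, 283 and 204 FPKM in the tumors and 6.16 and 12.8 FPKM in the normals (log2 fold change 5.10, SE 0.86, adjusted p = 0.00105). Cxcl5, a neutrophil attractant, stood at 94.8, 34.0 and 50.1 FPKM against 0.792 and 1.01 FPKM (log2 fold change 4.87, SE 0.57, adjusted p = 8.55e-05), and Il1b, interleukin-1 beta, at 143, 32.8 and 36.4 FPKM against 2.65 and 3.76 FPKM (log2 fold change 3.76, SE 0.63, adjusted p = 0.00103). Tumor 1 stood well above tumors 2 and 3 in all 3 genes. Without normal 1, 13 rose, and without normal 2, 11. Summed over the list, tumors held 733 to 2223 FPKM and normals 68.5 to 72.5 FPKM. Of 13 genes of the IL-6 family and STAT3 7 rose and 1 fell, among them the cytokine gene Il11 (log2 fold change 3.35, SE 0.68, adjusted p = 0.00323), the feedback inhibitor Socs3 (log2 fold change 2.12, SE 0.35, adjusted p = 9.02e-04) and Il23a, a subunit of interleukin-23 listed at 0 in normal 1 (log2 fold change 2.96, SE 0.48, adjusted p = 7.82e-04). Il6 did not pass (log2 fold change 1.61, SE 0.65, adjusted p = 0.0777), at 8.06, 1.64 and 0.611 FPKM in the tumors. Of 16 prostaglandin genes 4 rose and 4 fell: Ptgs2, the inducible cyclooxygenase, rose with 32.1, 4.65 and 8.96 FPKM against 1.71 and 2.42 FPKM (log2 fold change 2.02, SE 0.69, adjusted p = 0.0423), and Hpgd, which degrades prostaglandins, fell (log2 fold change -2.09, SE 0.37, adjusted p = 0.00144).

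In other immune lists fewer genes passed. Of 18 macrophage and monocyte genes 4 rose and 1 fell. The arginase gene Arg1 rose from 3.80 and 1.95 FPKM to 58.7, 23.6 and 22.5 FPKM (log2 fold change 3.11, SE 1.05, adjusted p = 0.0403), the scavenger receptor gene Cd163 fell (log2 fold change -1.65, SE 0.38, adjusted p = 0.00634), and the complement gene C1qa did not pass (log2 fold change 0.53, SE 0.35, adjusted p = 0.272). No gene of 12 T cell and 10 MHC class II genes passed in limma, with medians of 0.31 and 0.24, and 1 T cell and 0 MHC class II genes had an unadjusted p below 0.05. Of 9 mast cell genes 4 rose, including the protease genes Cpa3 (log2 fold change 1.91, SE 0.55, adjusted p = 0.0193) and Cma1 (log2 fold change 3.07, SE 0.92, adjusted p = 0.024), while Kit, a receptor also found on pacemaker cells of the gut muscle, fell (log2 fold change -1.76, SE 0.41, adjusted p = 0.00729). Of 12 B and plasma cell genes Tnfrsf17 fell, Sdc1, which epithelium also expresses, rose, and 10 did not pass. The list median was -0.97, and 11 of the 12 values were negative. In 8 of the 12 every tumor lay below both normals, beside 32.9% of all genes. Summed over the list, tumors held 602 to 1020 FPKM and normals 1450 to 1558 FPKM.

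Interferon response genes rose in 3 of 19 cases (median 0.79), close to the 12.4% of all genes that rose. Where KO-8-homo and WT-young libraries alone were fitted 10 rose, and 2286 of all 13407 genes did so in that fit. At most 1 rose when tumor 1 or tumor 2 was left out. Usp18, an inhibitor of interferon signaling, stood at 8.21, 15.8 and 12.2 FPKM in the tumors and 1.86 and 2.70 FPKM in the normals (log2 fold change 1.96, SE 0.47, adjusted p = 0.00793). Ifit2, an interferon-induced gene, stood at 6.01, 12.9 and 5.54 FPKM against 2.14 and 2.44 FPKM (log2 fold change 1.39, SE 0.46, adjusted p = 0.0379). Tumor 2 was highest in Usp18 and Ifit2, and in 13 of the 19 genes. Summed over the list the tumors gave 231, 328 and 260 FPKM and the normals 276 and 245 FPKM, so the sums overlapped, while WT-young tumors gave 667 to 1201 FPKM and their normals 249 and 315 FPKM. The difference from WT-young was negative in all 19 genes (median -1.33), with 0 past the adjusted test in limma and 10 at an unadjusted p below 0.05. With KO-8-hetero it was negative in 17 of 19 genes, beside 47.9% of all genes, and passed in 3, beside 1.95% of all genes that passed as negative, and in 0 with any 1 of the KO-8-homo libraries left out.

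Of 17 matrix metalloproteinases and inhibitors 8 rose, 0 fell and 9 did not pass (median 1.32). Mmp10, stromelysin-2, stood at 259.6, 99.7 and 114 FPKM in the tumors and 1.63 and 3.55 FPKM in the normals (log2 fold change 5.38, SE 0.60, adjusted p = 6.25e-05). Mmp13, a collagenase gene, stood at 71.9, 24.7 and 37.5 FPKM against 2.48 and 3.68 FPKM (log2 fold change 3.37, SE 0.73, adjusted p = 0.00467). Tumor 1 was the highest tumor in both genes and in 13 of the 17. Timp1, an inhibitor of these enzymes, rose by 2.09. Of 15 collagens 1 passed, Col18a1, a basement membrane collagen and source of endostatin (log2 fold change 2.62, SE 0.53, adjusted p = 0.00308), although the list median was 1.08. Col1a1, fibrillar collagen, stood at 52.0, 52.1 and 19.5 FPKM against 16.3 and 7.41 FPKM (log2 fold change 1.68, SE 0.73, adjusted p = 0.101), with tumor 3 near the normals. Of 15 endothelial genes 1 rose, Prox1, which is also on the Wnt list, and of 19 fibroblast genes 1 rose (Vim, log2 fold change 1.53, SE 0.26, adjusted p = 0.00104) and 3 fell.

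Most muscle and fat genes, and some nerve genes, fell. Of 16 smooth muscle genes 15 fell (median -2.54) and all 16 were lower in every tumor than in either normal, as were 32.9% of all genes. Myh11, smooth muscle myosin, stood at 30.6, 36.4 and 74.9 FPKM in the tumors and 382 and 378 FPKM in the normals (log2 fold change -3.09, SE 0.78, adjusted p = 0.0109), and Des, desmin, at 28.1, 26.8 and 80.9 FPKM against 443 and 522 FPKM (log2 fold change -3.57, SE 0.92, adjusted p = 0.0119). Tumor 3 was the highest tumor in all 16 genes. The summed list gave 486 to 1029 FPKM in tumors and 3914 to 4792 FPKM in normals. Of 9 adipocyte genes 8 fell, among them Cfd, adipsin (log2 fold change -6.26, SE 1.04, adjusted p = 9.78e-04), and Adipoq, adiponectin, from 10.5 and 12.2 FPKM to 0.04, 0.0835 and 0 FPKM (log2 fold change -3.57, SE 0.66, adjusted p = 0.00193), with sums of 55.8 to 70.8 FPKM in tumors and 329 to 363 FPKM in normals. Of 13 enteric neuron and glia genes 7 fell and Ret rose, with sums of 14.8 to 30.4 FPKM in tumors and 69.6 to 75.8 FPKM in normals. The normal pieces held more RNA of these muscle, fat and nerve markers, and the part of this in the other differences was not tested. Without normal 1, 7 smooth muscle genes fell, and without normal 2, 4 did, at medians of -2.69 and -2.40.

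Growth factor genes moved in both directions. Of 10 EGF family genes 4 rose and 2 fell: the ligand genes Ereg (log2 fold change 2.72, SE 0.69, adjusted p = 0.0105), Nrg1, Btc and Tgfa rose, with Ereg at 77.3, 17.1 and 21.3 FPKM in the tumors and 2.50 and 5.57 FPKM in the normals, and the ligand gene Egf and the receptor gene Erbb2 fell. Of 19 genes of BMP signaling 2 rose and 4 fell, beside 12.4% and 11.7% of all genes, so the rises were no more frequent than over all genes. Bmp7, a ligand, rose from 3.20 and 2.13 FPKM to 19.2, 18.4 and 13.7 FPKM (log2 fold change 2.30, SE 0.34, adjusted p = 4.18e-04), and Bmp3, an antagonistic ligand, fell (log2 fold change -2.03, SE 0.45, adjusted p = 0.0053), as did the antagonist gene Chrdl1 and the inhibitor gene Id4. Of 12 keratins 4 rose and 0 fell, including Krt23 (log2 fold change 2.69, SE 0.44, adjusted p = 8.58e-04), and Krt20, a keratin of surface cells, did not pass (log2 fold change -1.57, SE 0.61, adjusted p = 0.0666). Of 17 immediate early and heat shock genes 3 rose, Ier3, Jun and Egr1, and of 16 clock genes 1 rose, Bhlhe40, by 1.03. Both counts stand beside the 12.4% of all genes that rose.

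Of 12 Hox and colon position genes 1 rose, 3 fell and 8 did not pass (median -0.22), and several varied among the normals of the groups. Cdx2, a transcription factor of intestinal identity, stood at 10.2, 30.0 and 8.09 FPKM in the tumors and 96.2 and 97.3 FPKM in the normals (log2 fold change -2.74, SE 0.86, adjusted p = 0.0297), and Cdx1 fell too (log2 fold change -1.55, SE 0.28, adjusted p = 0.00147). Hoxb13, a gene of the most distal colon, stood at 117, 103 and 151 FPKM against 6.63 and 20.7 FPKM, without overlap, and missed the threshold (log2 fold change 3.26, SE 1.17, adjusted p = 0.0515). Hoxd13, also distal, stood at 16.6, 0.346 and 45.6 FPKM in the tumors and 0.0745 and 0.12 FPKM in the normals (log2 fold change 3.24, SE 1.61, adjusted p = 0.15). Tumors 1 and 3 were high in Hoxd13 and tumor 2 was low. Of 9 genes of other gut segments 4 fell, including the ileal bile acid genes Fabp6 (log2 fold change -1.88, SE 0.46, adjusted p = 0.00903) and Slc10a2 (log2 fold change -2.63, SE 0.77, adjusted p = 0.0215). The WT-young normals gave 0.902 and 62.1 FPKM of Hoxd13 and the KO-8-hetero normals 56.3 and 32.9 FPKM. Retnlb, with 3741 and 1369.8 FPKM in the KO-8-homo normals, gave 845 and 4.98 FPKM in the WT-young normals and 4.75 and 12.1 FPKM in the KO-8-hetero normals. The segment of colon each piece came from is not labelled, and its part in the tumor minus normal differences, and in their differences between groups, was not tested.

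**Figure D4:**
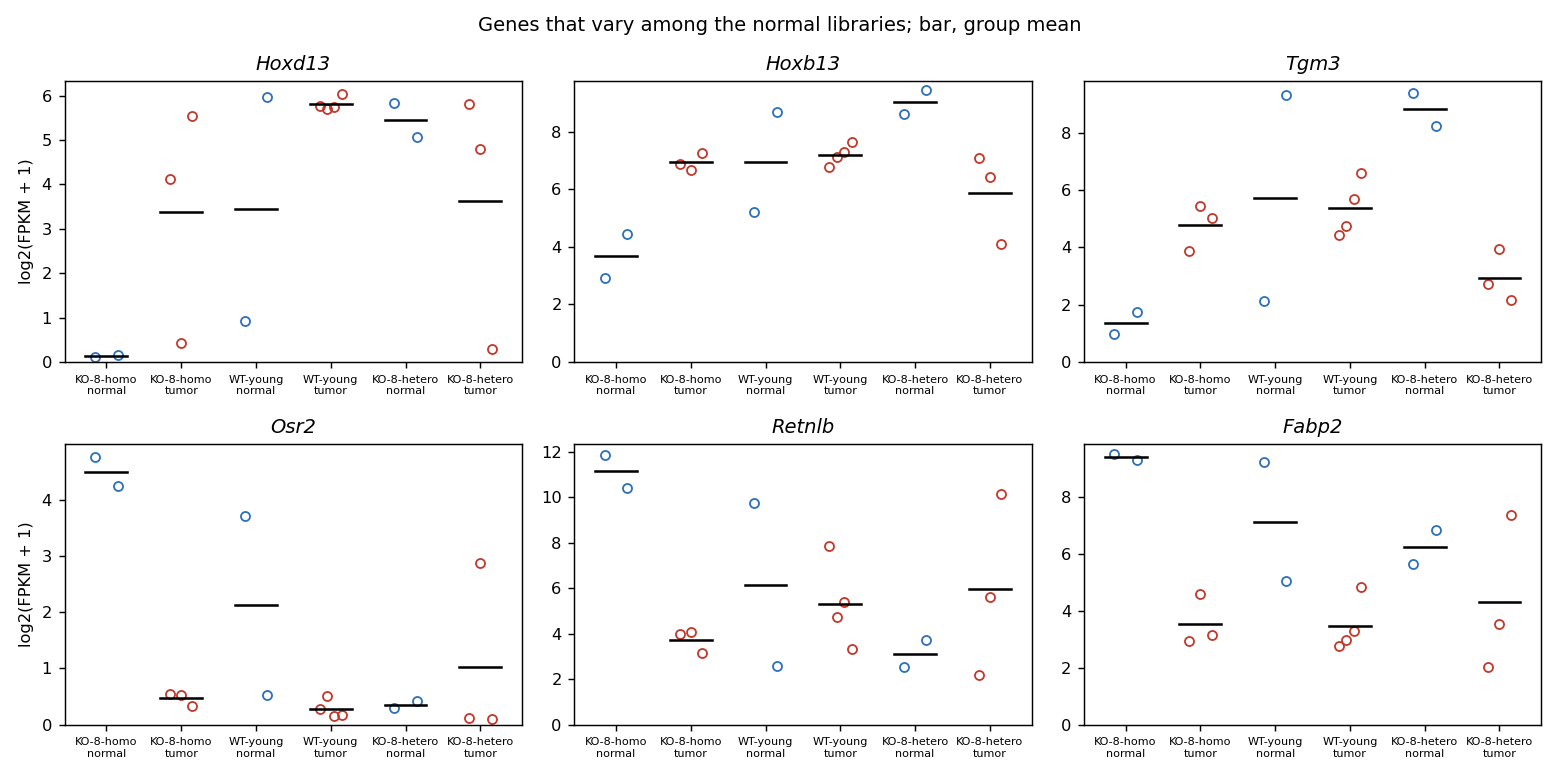
Levels as log2(FPKM + 1) of 6 genes in each normal (blue) and tumor (red) library of the KO-8-homo, WT-young and KO-8-hetero groups, with group means as bars. Both KO-8-homo normals are low in Hoxd13, Hoxb13 and Tgm3 and high in Osr2, Retnlb and Fabp2, WT-young normal 1 lies closer to them than WT-young normal 2 does in all 6 genes, and the KO-8-hetero normals are high in the first 3 and low in Osr2 and Retnlb.

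The 3 tumors were not alike. Over all genes the median absolute difference between 2 tumors was 0.141 to 0.177 on the log2 scale, beside 0.139 between the 2 normals and 0.361 between tumor and normal means. Tumor 1 was the highest tumor in 19 of 20 neutrophil and IL-1 genes and 15 of 18 macrophage genes, where it was the highest in 36.0% of all genes. Cxcl2, a neutrophil attractant, stood at 39.0, 5.61 and 7.07 FPKM in tumors 1, 2 and 3. Tumor 2 was highest in 13 of 19 interferon genes (34.6% of all genes) and in 10 of 13 crypt stem cell genes, and had the least Krt36 and Hoxd13. Tumor 3 was highest in all 16 smooth muscle genes and in 12 of 13 neuron and glia genes (29.5% of all genes), and lowest in most collagens. With 1 library each, these are values of single samples with no test.

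**Figure D5:**
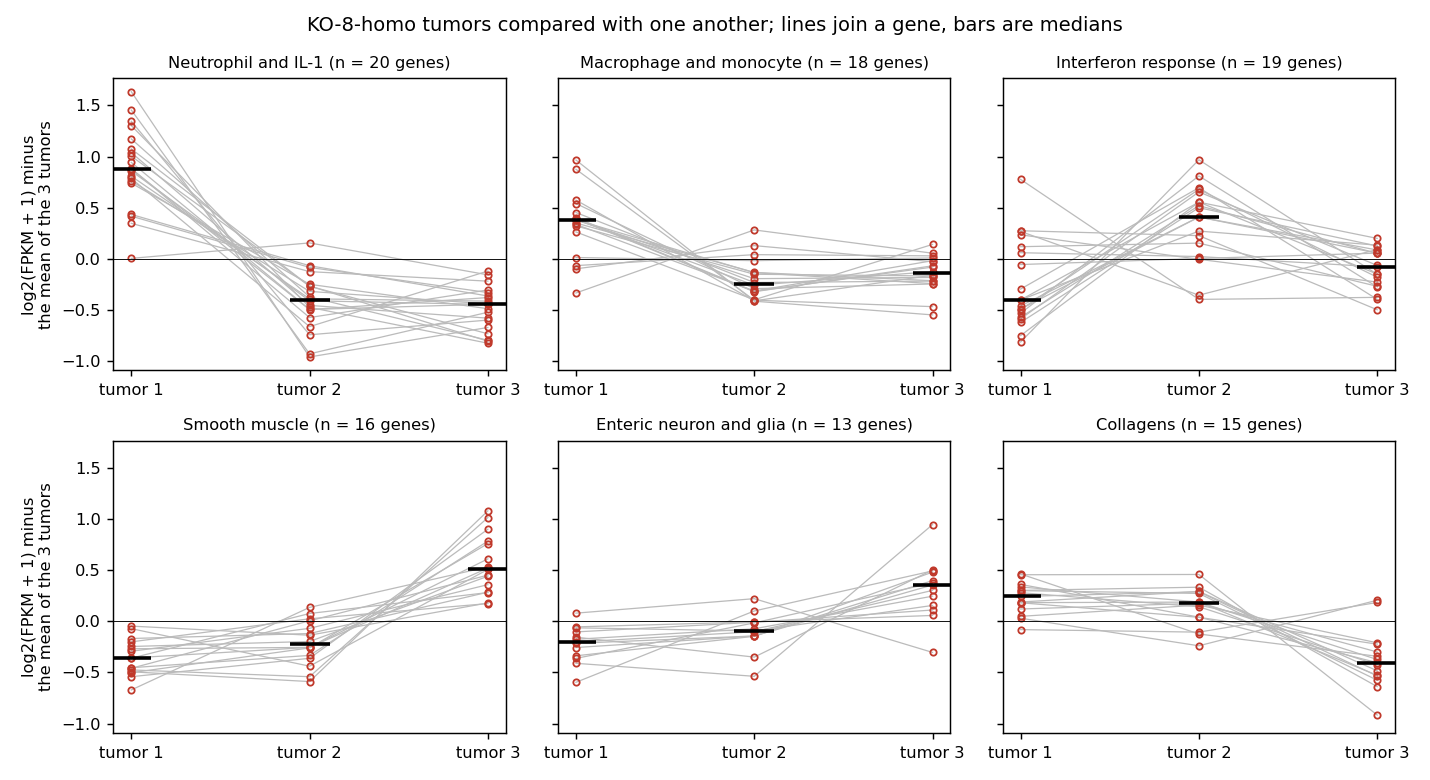
Values of log2(FPKM + 1) minus the mean of the 3 KO-8-homo tumors for the genes of 6 lists, with a grey line joining each gene and black bars at the medians. Tumor 1 is high in neutrophil and macrophage genes, tumor 2 in interferon genes, and tumor 3 in smooth muscle and nerve genes and low in collagens.

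The genes with the largest spread among the tumors at a mean of at least 5 FPKM included Hoxd13 and Krt36, described above. Prss56, a serine protease gene, stood at 0.884, 30.8 and 3.54 FPKM, high in tumor 2 alone, and was listed at 0 in both normals. Eif3j1, a translation factor gene with a close paralog, stood at 5.90, 15.5 and 0.045 FPKM in the tumors and 19.8 and 0.0427 FPKM in the normals, so it varied within both tissues. The remaining 6 of the 10 were small nucleolar or micro RNA genes (Snora31, Snora28, Snora15, Snora43, Mir8094 and Mir8112), whose short transcripts are poorly captured in libraries made from polyadenylated RNA. For the same reason the fall of the small nuclear RNA gene Rnu11, 105 and 81.5 FPKM in the normals and listed at 0 in all tumors, is an uncertain value.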

How the data were processed

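Total RNA of mouse colorectal tissue was extracted with miRNeasy kits and made into TruSeq Stranded mRNA libraries, per the labels' protocols. The authors deposited 1 table of FPKM values per gene symbol and library; the submitters' processing notes name TopHat2 2.1.1, Bowtie2 2.2.8, SAMtools 0.1.18, Cuffdiff 2.2.1 and mm10. No counts are used here, so depth is known only relatively and no counting interval is given.

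Values were tested as log2(FPKM + 1) in limma 3.58.1 (R 4.3.3), with all 24 libraries in a model of 10 groups, an intensity trend and Benjamini-Hochberg adjustment over 13407 genes. On simulated data for the tumor against normal comparison, over 13407 genes, 55.4% of genes changed by 1 on the log2 scale were called, with 6.11% of calls false, and 91% of those changed by 2, with 3.74% false. In a fit of the 5 libraries alone, 0% and 78.6% were called. The simulation changed 200 genes and drew independent normal noise with 1 spread per gene. The data gave 3220 calls, so these rates need not hold for them. Alternatives changed the pseudocount, filter, scaling, trend, libraries fitted and replicate block, and left out each library.

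The libraries, members and gene lists were chosen with earlier results of these data known, and the c-MAF targets are a list from the literature. Genes were named by a rule. It took the MAF family, and the 15 largest rises and 15 largest falls at a mean of at least 5 FPKM. Those rises and falls had to pass the test, with tumor and normal ranges that do not overlap. From each list the rule took the 5 genes with the smallest p and any gene counted. It also took the extremes of the group differences and the 10 most variable genes among tumors. Some results are not reported here. Other genes were named after their values were seen, such as Krt8, Lypd8, Il6 and Myh11. Promoter windows came from RefSeq (GRCm38.p6).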

Additional observations from a re-analysis of the deposited data

Results flagged for a closer look

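The tumor minus normal difference of KO-8-homo differed from that of KO-8-hetero in 417 genes by limma's test of the difference, and the 6 most extreme are given here as values on the log2(FPKM + 1) scale. The difference was larger in KO-8-homo by 9.29 for Tgm3, a transglutaminase gene, by 6.41 for Hoxb13 and by 6.38 for Spink1, a trypsin inhibitor gene. It was smaller in KO-8-homo for the antimicrobial lectin gene Reg3g (-7.03), for Plet1 (-6.97) and for Emp1, a membrane protein gene (-6.38). Every one of these 6 lost its call when either KO-8-homo normal or KO-8-hetero normal 2 was left out. In all 6 the normals of the groups did not overlap: KO-8-homo against KO-8-hetero normals gave 253 to 281 against 2.61 to 5.68 FPKM for Plet1, 432 to 545 against 17.5 to 30.2 FPKM for Emp1, and 41.6 to 53.8 against 0.878 to 1.79 FPKM for Reg3g. They gave 67.0 to 76.2 against 1031 to 1966 FPKM for Spink1, 6.63 to 20.7 against 391.8 to 697 FPKM for Hoxb13, and 0.983 to 2.39 against 304 to 671 FPKM for Tgm3. The part of the sampled segment in these differences was not tested.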

How the results depend on the processing

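The direction of each gene called in both was the same under every alternative. The genes that rose and fell numbered 3120 and 3065 with the 5 libraries alone, 3696 and 2698 with those 5 scaled to a common median (chosen after seeing the data, as were leaving out WT-young or KO-8-hetero libraries and using KO-1-hetero), and 423 to 1244 and 342 to 1152 with 1 library left out. Correlations of deviations between same-numbered tumors and normals were 0.0196 and -0.137 in KO-8-homo and 0.359 and -0.162 in WT-young. With 2 normals the deviations of 1 mirror those of the other, so these values cannot show whether replicate numbers pair pieces of 1 animal. With a replicate block 945 genes rose and 1021 fell. Against WT-young, 1 gene passed in each direction with no filter, 0 and 9 with KO-8-homo and WT-young libraries only, and 0 to 24 positive and 0 to 108 negative with 1 library left out. Against KO-8-hetero, the replicate block left 28 and 17 (1 of them a cell cycle gene), median scaling gave 101 positive, the KO-1-hetero group gave 0 and 0, and leaving out 1 library gave 1 to 1746 and 12 to 1758. Genes below the threshold changed sign. Median scaling turned Top2a to 0.0091 and Kifc1 to 0.0241, with all libraries or 5. The replicate block turned Lypd8 to -0.0628, Mir8094 to -0.1692 and Snora31 to -0.1426. With 1 library left out, log2 fold changes ran from -2.0803 to 2.2387 for Eif3j1, -0.0766 to 0.0072 for Kifc1, -0.0666 to 0.3450 for Lypd8, -1.2007 to 3.2587 for Mir8094, -0.3281 to 0.0342 for Reg3g, -4.4896 to 1.4255 for Snora15, -1.6924 to 4.0177 for Snora31, -0.2368 to 2.2566 for Snora43, -0.3485 to 0.0114 for Spink4, -0.3679 to 0.0621 for Tff3 and -0.1549 to 0.0807 for Top2a. The cause of these shifts was not tested, beyond the smaller number of libraries. The 2 normals limit every result, and low genes have few reads behind them.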
